A study of Homo sapiens with 10 samples.

Results

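The genes described here encode enzymes that build, transfer and trim N-linked glycans and were chosen by name: the ALG, DPM1 to DPM3, MGAT1 to MGAT5 and MAN1 and MAN2 families, with 18 further genes from the mannose donor enzymes to the oligosaccharyltransferase subunits. They take 52 of the 22626 rows of the count table, and 49 of them were among the 14936 rows with enough counts to be tested. N-linked glycosylation begins on the lipid dolichol, on which mannose, glucose and N-acetylglucosamine are assembled into a single oligosaccharide at the membrane of the endoplasmic reticulum (ER). Oligosaccharyltransferase moves the finished oligosaccharide onto asparagine residues of proteins entering the ER, and glucosidases, mannosidases and N-acetylglucosaminyltransferases of the ER and Golgi then trim and branch it. In the retinal pigment epithelium (RPE), as in other epithelia, most receptors, transporters and secreted matrix proteins pass through this route.

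RNA was sequenced from ARPE-19, a human RPE cell line, kept in DMEM with fetal bovine serum and antibiotics. The control group (n = 5) received 5.5 mM D-glucose with 32 mM mannitol, a sugar alcohol added to match the osmotic load, and the HG group (n = 5) received 37.5 mM D-glucose without mannitol, each for 48 h. The HG libraries are named HG_1 to HG_5 after the columns of the deposited table. The labels name no other agent, and all 10 libraries come from this line, whose passage is not given in the sources used here.

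Libraries held 32448991 to 45864176 counts, of which the 52 genes took 0.412% to 0.455%, and 3 counts corresponded to 0.0654 to 0.0925 CPM (counts scaled to library size). The glucose-induced genes TXNIP and ARRDC4 were higher in every HG library than in every control library. Of 13 RPE markers, 10 were tested, of which 3 were called lower (KRT8, KRT18 and PMEL) and 0 higher. Of all rows tested, 7.8% were called lower and 7.62% higher. RPE65 had 0 to 6 counts per library, TYR 0 to 34 and TTR 0, and the summed level of the list was 2866 to 3628 CPM in the control group and 1828 to 2492 CPM in the HG group, most of it from the keratins KRT8 and KRT18. The channel gene BEST1, 1 of the list, was at 264 and 551 CPM in control replicates 1 and 4 and between 0.577 and 7.79 CPM in the other 8 libraries. Whether this shift has a part in the results below was not tested. Markers of other cell types (leukocytes, endothelium, glia and muscle among them) summed to 0.273 to 0.763 CPM in the control group and 0.122 to 0.602 CPM in the HG group, with the endothelial marker CDH5 and the muscle marker DES at 0 counts in every library. HG_1 and control replicate 2 stood apart from their groups across these genes, as described below, and for many of the genes below values without them are given too.

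Differences between the groups in these genes were small and went both ways. In whole-culture RNA, fewer cells expressing a gene and less of its RNA per cell cannot be told apart. With edgeR's quasi-likelihood test and Benjamini-Hochberg adjustment over all rows tested (called at an adjusted p under 0.05), 4 genes were higher in the HG group (DPM3, MAN1C1, MGAT5B and DPM1) and 3 were lower (MAN2B1, OSTC and MAN2A2). The 7 calls are 14.3% of the 49 genes tested, beside 15.4% of all rows. By direction, 7.62% of all rows were called higher and 7.8% lower. The called genes differed by 11.9% to 43.5%, and no gene of the pathway passed 1.5-fold, a size passed by 8.41% of all rows. The median log2 fold change (HG over control) was -0.0049 over the 49 genes and 0.0013 over all rows, and the median size of the change, regardless of sign, was 0.097 and 0.15. For 41 of the 42 genes that were not called, the 95% interval of the fold change lay within 1.5-fold in either direction. The exception was MGAT4B. Libraries of the 2 groups did not overlap for 5 of the 49 genes (10.2%, beside 13.6% of all rows): MAN2A2, OSTC and RPN1 were lower in every HG library, and DPM1 and MAN2B2 were higher. The count of higher calls fell to 2 without HG_2, HG_3, HG_5 or control replicate 3 and to 1 without HG_4 or control replicates 1, 4 or 5, beside 10.9% to 12% of all rows called in either direction in those fits. Without HG_1 the count of lower calls was 5, beside 19.9% of all rows called in either direction.

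**Figure D1:**
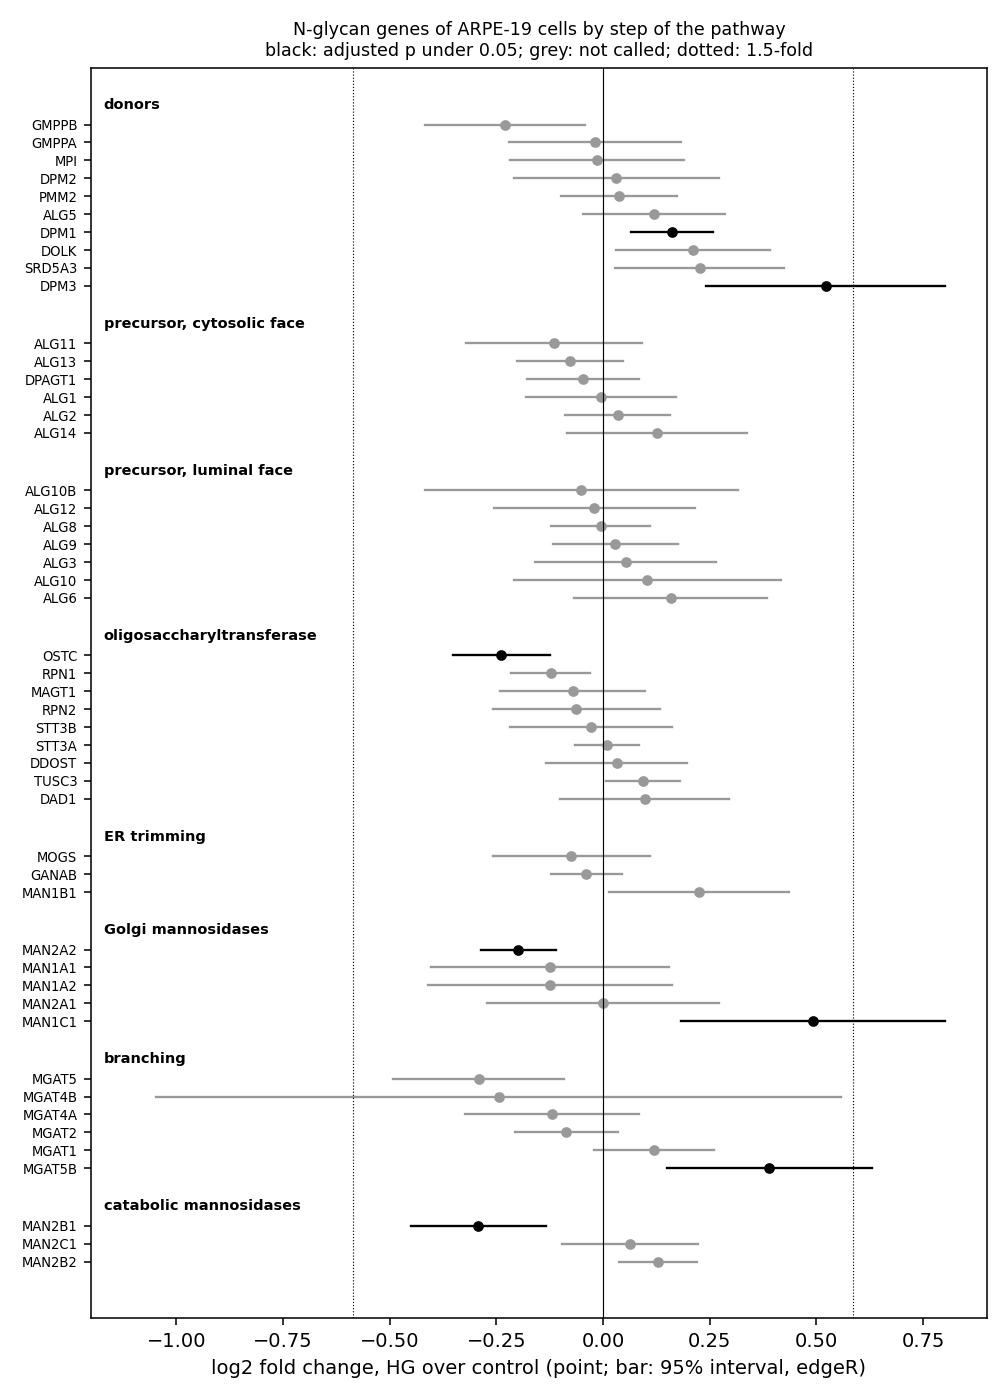
Log2 fold change of the HG group over the control group (horizontal axis) for the 49 tested genes, grouped by step of the pathway. Points are estimates and bars 95% intervals from edgeR, black where the adjusted p was under 0.05, and dotted lines mark 1.5-fold. The 7 black points are split between both sides of 0, and the bar of MGAT4B is the widest.

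The donor step makes the activated sugars and the dolichol carrier. Of its 10 tested genes, 2 were higher and 0 lower, beside 7.62% and 7.8% of all rows, with a median log2 fold change of 0.08. Stretches of 100 bases that also occur in other annotated loci make up 58.6% of PMM2, 54.1% of GMPPB, 37.2% of MPI and 34.9% of DPM2, so the counts of these genes are less certain. Both called genes encode subunits of dolichol-phosphate mannose synthase, which hands mannose to the luminal ALG enzymes: DPM1 is its catalytic subunit, and DPM3 holds DPM1 at the ER membrane.

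DPM3 (chr1:155139891-155140595, minus strand, GRCh38) had 6.31, 9.06, 6.73, 7.17 and 6.18 CPM in control replicates 1 to 5 and 11.8, 9.14, 9.83, 8.91 and 11.2 CPM in HG_1 to HG_5. Control replicate 2 lay above HG_4, and all other HG libraries were above all controls. The log2 fold change was 0.52 (SE 0.127, adjusted p = 0.0189), from 7.09 ± 1.17 to 10.2 ± 1.29 CPM (SD, n = 5 each). The adjusted p was 0.0503 without control replicate 1 and 0.0501 without control replicate 5, and it was 0.00313 without HG_1 and control replicate 2.

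DPM1 (chr20:50934867-50958555, minus strand) had 45.6, 45.9, 43.1, 45.3 and 43.6 CPM in the control libraries and 49.7, 48.2, 52.5, 50.7 and 49 CPM in the HG libraries, in the same order. The groups did not overlap, although the difference was the smallest of the 7 calls. Its log2 fold change was 0.16 (SE 0.0435, adjusted p = 0.0286). After a correction of each library for GC content and transcript length it was 0.07 with an adjusted p of 0.264, and the adjusted p lay between 0.0501 and 0.0822 without HG_3, HG_4, HG_5 or control replicates 3, 4 or 5.

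The regulatory subunit DPM2 was not called. Its log2 fold change was 0.03 (95% interval -0.21 to 0.27), and HG_1, at 34.2 CPM, was above the other HG libraries at 24.6 to 25.9 CPM. The estimate was -0.06 without HG_1, 0.09 without control replicate 2 and -0.0073 without both. The differences between the 3 subunits' fold changes were not tested. The promoters of the 3 subunit genes are shown because these genes serve a single enzyme and only 2 of them were called. Each run is the 250 bases before a transcription start listed by RefSeq (GRCh38.p14), 5′ to 3′ on the minus strand, for DPM1 chr20:50958565-50958814, for DPM2 chr9:127937855-127938104 and for DPM3 chr1:155140532-155140781. RefSeq lists 2 starts each for DPM1 and DPM3, and the window shown is that of the outermost start.
DPM1: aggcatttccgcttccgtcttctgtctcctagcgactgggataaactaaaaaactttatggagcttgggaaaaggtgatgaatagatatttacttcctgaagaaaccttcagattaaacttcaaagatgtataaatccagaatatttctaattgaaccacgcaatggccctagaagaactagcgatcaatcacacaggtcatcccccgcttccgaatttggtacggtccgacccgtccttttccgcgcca
DPM2: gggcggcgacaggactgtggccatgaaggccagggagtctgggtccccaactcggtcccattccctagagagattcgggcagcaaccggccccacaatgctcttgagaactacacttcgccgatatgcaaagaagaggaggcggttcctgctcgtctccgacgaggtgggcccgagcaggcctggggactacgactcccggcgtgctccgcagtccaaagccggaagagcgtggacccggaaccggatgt
DPM3: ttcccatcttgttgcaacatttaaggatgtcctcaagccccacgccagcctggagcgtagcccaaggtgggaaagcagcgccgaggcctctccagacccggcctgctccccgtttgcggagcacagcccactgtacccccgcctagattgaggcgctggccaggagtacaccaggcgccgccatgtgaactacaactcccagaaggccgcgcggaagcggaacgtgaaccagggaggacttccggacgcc
GC content was 43.6% for DPM1 and 63.6% for both DPM2 and DPM3. None of these windows, nor those of the inner starts of DPM1 and DPM3, held any of the 4 motifs searched, which are spelled out with ALG12 below.

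Among the other donor genes, GMPPB, the catalytic subunit that makes GDP-mannose, stood at -0.23 on the log2 scale (adjusted p = 0.0971), and its regulatory partner GMPPA had -0.02 (adjusted p = 0.921). DOLK, which phosphorylates dolichol, and SRD5A3, the reductase associated with dolichol synthesis, had 0.21 and 0.23 (adjusted p = 0.113 and 0.122). GMPPB and SRD5A3 passed the test once HG_1 and control replicate 2 were left out, at -0.25 and 0.30 (adjusted p = 0.0179 and 0.0139). DOLK passed it with the GC and length correction, at 0.19 (adjusted p = 0.0353). GMPPA was at -0.07 without HG_1, 0.06 without control replicate 2 and 0.0027 without both. MPI and PMM2, which convert fructose 6-phosphate toward mannose 1-phosphate, had -0.01 and 0.04. ALG5, which makes dolichol-phosphate glucose, had 0.12, and its groups overlapped.

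**Figure D2:**
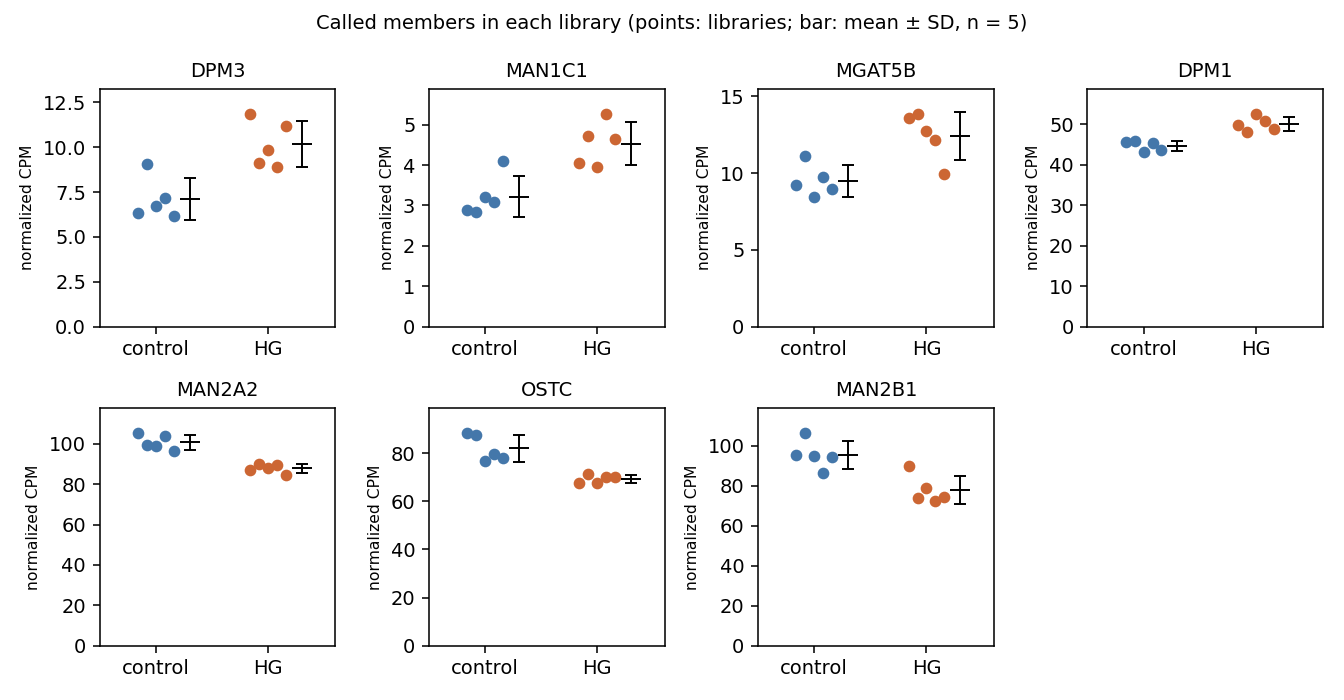
Normalized CPM (vertical axes, from 0) of the 7 called genes in each control library (left of each panel) and each HG library (right), with the group mean and SD (n = 5). The groups separate fully in DPM1, MAN2A2 and OSTC, and in the other 4 genes at least 1 library lies in the range of the other group.

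None of the 13 transferase genes that assemble the lipid-linked oligosaccharide was called, a small group beside 15.4% of all rows called. On the cytosolic face of the ER, DPAGT1 adds the initial sugar phosphate, and ALG13 and ALG14 add the second N-acetylglucosamine. ALG1, ALG2 and ALG11 add mannose. On this face 0 of 6 genes were called, and log2 fold changes ran from -0.11 (ALG11) to 0.13 (ALG14). ALG11 was at -0.05 without HG_1, -0.18 without control replicate 2 and -0.13 without both. DPAGT1, the gene with the highest mean FPKM of this step (fragments scaled by transcript length and library size), had 45.5, 48, 47.7, 46.1 and 45.8 CPM in control replicates 1 to 5 and 51.6, 44, 44.1, 44.2 and 41.5 CPM in HG_1 to HG_5. HG_1 was the highest of all 10 libraries, and the remaining HG libraries lay below every control.

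On the luminal face, ALG3, ALG9 and ALG12 add mannose and ALG6, ALG8 and the paralogs ALG10 and ALG10B add glucose. None of the 7 genes was called, and log2 fold changes ran from -0.05 (ALG10B) to 0.16 (ALG6). Without HG_1 these were 0.06 for ALG10B and 0.24 for ALG6, and without HG_2 ALG10B was at -0.16. ALG3, the highest of them by mean FPKM, had 47.2, 58.1, 50, 47.9 and 45.1 CPM in the control libraries and 63.3, 49.5, 49.9, 49.4 and 45.5 CPM in the HG libraries. Control replicate 2 and HG_1 were the highest library of their group. ALG8 varied little, with a log2 fold change of -0.0054 and a 95% interval of -0.12 to 0.11. ALG10 and ALG10B share transcript sequence. Of the 100-base windows of ALG10, 22.4% occur in AC046130.1 or ALG10B, and of those of ALG10B 2.1% occur in ALG10. Their separate levels are uncertain to that extent. Shared windows were also frequent in ALG11 (90.5%), ALG1 (57.8%), ALG12 (35.8%) and DPAGT1 (28.5%).

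The promoter of ALG12 was the only promoter among these genes with the ER stress element, a target of the unfolded protein response factor ATF6, written CCAAT, 9 bases and CCACG. The run is chr22:49918439-49918688 (minus strand, GRCh38.p14, RefSeq), 5′ to 3′, with the match in capitals, which starts 134 bases before the transcription start.
ALG12: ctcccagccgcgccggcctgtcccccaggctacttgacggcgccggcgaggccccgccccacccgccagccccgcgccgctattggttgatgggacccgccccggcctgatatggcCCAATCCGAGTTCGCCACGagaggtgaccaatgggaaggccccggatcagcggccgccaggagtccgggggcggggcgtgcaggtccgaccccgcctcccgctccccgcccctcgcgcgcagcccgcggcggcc
Across all 35116 promoter windows, 0.074% held this element on either strand. ALG12 overlaps CRELD2 on the opposite strand, and which of these genes the element acts on was not tested. CRELD2, which is in the list of ER chaperone and stress genes below, was not called (log2 fold change -0.17, adjusted p = 0.2275). The windows cover 44 of the 52 genes. TGACGTGG was in 0.612% of all windows and TGATGNAA in 3.14%, and both were in 0 of the 67 windows of these genes. The CCACG end of the ER stress element can overlap CACGTG or TGACGTGG. CACGTG was in 6.34% of all windows and in 7 of the 67, those of ALG1, ALG3, DDOST, DOLK, GMPPA, MGAT4D and SRD5A3, and in 0 of the called genes. ALG12 had 27.4, 37.9, 30, 32.4 and 26.9 CPM in control replicates 1 to 5 and 36.2, 29.8, 30.2, 27.2 and 28.9 CPM in HG_1 to HG_5. The groups overlapped, and the log2 fold change was -0.02 (95% interval -0.25 to 0.22), or -0.09 without HG_1, 0.07 without control replicate 2 and -0.0033 without both. A group of 12 ER chaperone and stress genes, listed for context, had 7 called lower and 0 higher, beside 7.8% of all rows called lower and 7.62% higher, with a median log2 fold change of -0.33. HSPA5 (BiP, the main luminal chaperone) was at -0.73 (adjusted p = 1.95e-05), HYOU1 at -0.62, HSP90B1 at -0.46 and MANF at -0.44.

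Oligosaccharyltransferase has STT3A or STT3B as its catalytic subunit, with RPN1, RPN2, DDOST and DAD1 shared by both forms. OSTC belongs to the form with STT3A, which works beside the translocon, and the oxidoreductases TUSC3 and MAGT1 belong to the form with STT3B. Of 9 subunits 1 was called, OSTC, which was lower, beside 15.4% of all rows called in either direction. The median log2 fold change was -0.03.

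OSTC (chr4:108650584-108667820, plus strand) had 88.2, 87.4, 76.5, 79.5 and 77.9 CPM in control replicates 1 to 5 and 67.7, 71.4, 67.7, 70 and 70.2 CPM in HG_1 to HG_5. Every HG library was below every control. The level fell from 81.9 ± 5.51 to 69.4 ± 1.64 CPM (SD, n = 5 each), a log2 fold change of -0.24 (SE 0.0516, adjusted p = 0.0104). It was the only gene called under all 20 alternative settings, with log2 fold changes from -0.34 to -0.20. Its promoter is shown as that of the most stable call, chr4:108650349-108650598 on the plus strand, the 250 bases before the start listed by RefSeq (GRCh38.p14).
OSTC: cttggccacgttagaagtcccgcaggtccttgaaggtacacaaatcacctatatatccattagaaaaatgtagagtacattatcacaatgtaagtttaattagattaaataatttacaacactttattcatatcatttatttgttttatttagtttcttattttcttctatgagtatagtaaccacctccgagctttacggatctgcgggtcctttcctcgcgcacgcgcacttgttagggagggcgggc
This window had a GC content of 38.4% and none of the 4 motifs.

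Neither catalytic subunit was called. STT3A had 192, 192, 185, 189.5 and 187 CPM in the control libraries and 194, 186, 195, 189 and 186 CPM in the HG libraries, a log2 fold change of 0.0086 (95% interval -0.07 to 0.08). STT3B had 262, 205, 241, 260.4 and 245 CPM and 197, 249.8, 249, 258 and 237 CPM in the same order, a log2 fold change of -0.03 (95% interval -0.22 to 0.16), with control replicate 2 and HG_1 the lowest library of each group. The STT3B estimate was 0.04 without HG_1, -0.08 without control replicate 2 and -0.02 without both. The thioredoxin-like subunit TUSC3 had 130.0, 134, 134, 128 and 129 CPM in the control libraries and 135, 144, 145, 141 and 133 CPM in the HG libraries, a log2 fold change of 0.09 (adjusted p = 0.147), and 0.11 (adjusted p = 0.0404) without HG_1 and control replicate 2. Its paralog MAGT1 had 89.4, 74.1, 85.2, 84.3 and 89.7 CPM and 67.4, 87.2, 84.2, 83.8 and 79.8 CPM, a log2 fold change of -0.07 (adjusted p = 0.613), or -0.01 without HG_1 and -0.11 without control replicate 2.

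DDOST, a shared subunit and the highest gene of the pathway by mean FPKM, had 487, 561, 508, 473 and 477 CPM in control replicates 1 to 5 and 605, 496, 511, 479 and 472 CPM in HG_1 to HG_5. Its groups overlapped, with HG_1 and control replicate 2 the highest of each. RPN1 (ribophorin I) had 295, 303, 279, 295 and 279.5 CPM and 277, 263, 273, 267 and 251.6 CPM, with no overlap between the groups, and a log2 fold change of -0.12 (adjusted p = 0.0716). RPN1 was called without HG_1 and control replicate 2 (adjusted p = 0.0297) and with the GC and length correction (0.00578). RPN2 had -0.06 and DAD1 0.10, with overlapping groups. Single libraries moved both values. RPN2 was at -0.12 without control replicate 1 and 0.0063 without control replicate 3, and DAD1 was at 0.04 without HG_1, 0.17 without control replicate 2 and -0.0022 with the GC and length correction.

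Per transcript length, the subunits were far from equal in level. Relative to the summed FPKM of STT3A and STT3B in the same library, DDOST stood at 2.43 ± 0.332 in the control group and 2.48 ± 0.408 in the HG group (SD, n = 5 each). DAD1 stood at 1.34 and 1.42, RPN1 at 1.24 and 1.13 and RPN2 at 1.06 and 1.01. The subunits found in only 1 form were lower, with OSTC at 0.752 ± 0.0736 and 0.633 ± 0.0377, TUSC3 at 0.41 and 0.429 and MAGT1 at 0.2 and 0.188. These are ratios of RNA levels and not of subunits in the complex.

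**Figure D3:**
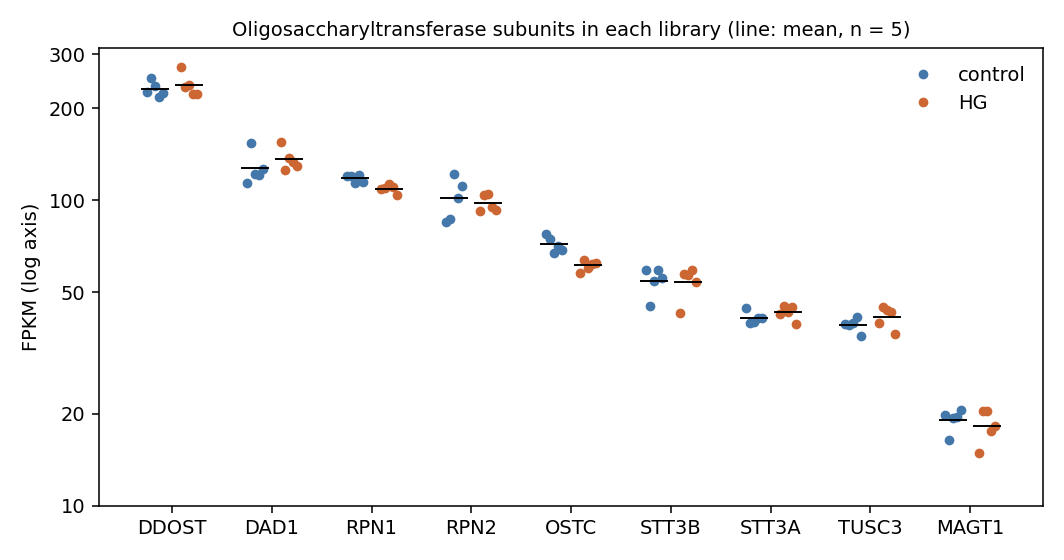
FPKM (log axis) of the 9 oligosaccharyltransferase subunits in each control and HG library, with a line at each group mean (n = 5). DDOST lies highest and MAGT1 lowest, and the gap between the groups is clearest in OSTC.

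Ratios between alternative enzymes of a step were compared within libraries, so that library scaling cancels. On the log2 scale STT3A to STT3B was -0.35 ± 0.152 in the control group and -0.32 ± 0.172 in the HG group (SD, n = 5 each; two-sided exact permutation test p = 0.556, adjusted over the 5 ratios p = 0.833). TUSC3 to MAGT1 was 0.63 ± 0.131 and 0.80 ± 0.117, a difference of 0.17 (exact permutation p = 0.0635, adjusted p = 0.317). Without control replicate 2 that difference was 0.22 (exact permutation p = 0.00794, adjusted p = 0.0397). The ratios of MAN1A1 to MAN1A2 (difference -0.0043), MAN2A1 to MAN2A2 (0.19) and MGAT4A to MGAT4B (0.21) gave exact permutation p of 0.889, 0.214 and 0.667 (adjusted p = 0.889, 0.536 and 0.833).

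Several of these differences moved with single libraries. MAN2A1 to MAN2A2 differed by 0.30 without HG_1, with every HG library above every control (exact permutation p = 0.0159, adjusted p = 0.0794), and by 0.11 without control replicate 2 (exact permutation p = 0.476). Without both libraries the HG values of MAN2A1 to MAN2A2 (difference 0.21) and of TUSC3 to MAGT1 (0.17) were all above the control values. Each then had an exact permutation p of 0.0286, the smallest that 4 against 4 libraries can give, and an adjusted p of 0.0714. STT3A to STT3B differed by -0.04 without HG_1, by 0.10 without control replicate 2 and by 0.03 without both. MGAT4A to MGAT4B differed by -0.20 without HG_5, by 0.48 without control replicate 1 and by 0.04 without control replicate 2.

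After transfer, MOGS and GANAB remove the glucose residues and MAN1B1, placed here with the ER enzymes, removes mannose. None of the 3 was called. GANAB, the catalytic subunit of glucosidase II, had 575, 568, 560.3, 548 and 554 CPM in control replicates 1 to 5 and 578, 541, 549, 540.0 and 523 CPM in HG_1 to HG_5. HG_1 was the highest library overall and HG_5 the lowest, and the log2 fold change was -0.04 (95% interval -0.12 to 0.04). MOGS had -0.07, or -0.14 without HG_1, -0.02 without control replicate 2 and -0.09 without both. MAN1B1 had 0.23 (adjusted p = 0.147), and 0.21 (adjusted p = 0.0183) without HG_1 and control replicate 2.

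Golgi mannosidases trim the glycan before it is branched. Of 5 genes 1 was higher (MAN1C1) and 1 lower (MAN2A2), beside 7.62% and 7.8% of all rows. MAN2A2 (chr15:90902218-90922584, plus strand), an alpha-mannosidase II, had 105, 99.3, 98.8, 104 and 96.4 CPM in control replicates 1 to 5 and 87.2, 89.8, 87.9, 89.3 and 84.6 CPM in HG_1 to HG_5. Every HG library was below every control, and the log2 fold change was -0.20 (SE 0.0402, adjusted p = 0.00749), the lowest adjusted p of the 49 genes. Its paralog MAN2A1 had 169, 122, 162, 168 and 176 CPM and 117, 173, 169, 170.1 and 168 CPM in the same order, with control replicate 2 and HG_1 far below the rest of each group and a 95% interval of the log2 fold change from -0.27 to 0.27.

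MAN1C1 (chr1:25617468-25786207, plus strand), an alpha-mannosidase I, was scarce, with 2.88, 2.83, 3.2, 3.09 and 4.09 CPM in the control libraries and 4.05, 4.73, 3.94, 5.26 and 4.65 CPM in the HG libraries. Control replicate 5 lay above HG_1 and HG_3. The log2 fold change was 0.49 (SE 0.14, adjusted p = 0.0372), and the adjusted p was between 0.0677 and 0.0881 without HG_2, HG_4, HG_5 or control replicates 1, 2, 3 or 4. The other alpha-mannosidase I genes were not called. MAN1A1 had 21.6, 15.1, 19.6, 18.6 and 20.1 CPM and 12.7, 18.5, 19.1, 19.2 and 17.7 CPM, and MAN1A2 had 60.5, 39.9, 52.8, 52.1 and 56.3 CPM and 35.1, 51.1, 50.2, 51.9 and 51.7 CPM, both with control replicate 2 and HG_1 lowest in their groups. The log2 fold change of both was -0.12. Without HG_1 it was -0.03 for both, without control replicate 2 it was -0.19 for MAN1A1 and -0.20 for MAN1A2, and without both libraries it was -0.10 and -0.11.

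Branching transferases add the N-acetylglucosamine from which complex glycan antennae grow. Of 6 tested genes 1 was called, MGAT5B, which was higher, beside 15.4% of all rows called in either direction. MGAT5B (chr17:76868456-76950393, plus strand), a relative of MGAT5 best known from the brain, had 9.25, 11.1, 8.42, 9.71 and 8.98 CPM in control replicates 1 to 5 and 13.6, 13.8, 12.7, 12.1 and 9.91 CPM in HG_1 to HG_5. HG_5 lay below control replicate 2, and the other HG libraries were above all controls. The log2 fold change was 0.39 (SE 0.109, adjusted p = 0.0339). Its adjusted p was between 0.0522 and 0.0851 in the 8 of 10 fits that left out a library other than HG_5 or control replicate 2.

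MGAT5, which makes the beta-1,6 branch, pointed the other way with -0.29 (SE 0.0909, adjusted p = 0.0539). It was called without HG_1 and control replicate 2 at -0.30 (adjusted p = 0.0029) and with the GC and length correction at -0.24 (adjusted p = 0.00785). MGAT1, which adds the initial branch, and MGAT2, which adds the next, had 0.12 and -0.09 and were not called. Without HG_1 they were at 0.07 and -0.05. With the GC and length correction MGAT1 was called at 0.19 (adjusted p = 0.0395). In MGAT2, 87.9% of 100-base windows also occur in another annotated locus. MGAT4A had 8.67, 7.51, 10, 7.84 and 8.11 CPM in the control libraries and 7.38, 7.73, 7.49, 7.78 and 8.42 CPM in the HG libraries, with a log2 fold change of -0.12. The MGAT4A estimate was -0.05 without control replicate 3, and 0.04 and 0.07 in the fits on log2(FPKM + 1) and log2(FPKM + 0.1).

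MGAT4B (chr5:179797597-179806952, minus strand), which shares the reaction of MGAT4A, was the most uneven gene of the pathway. It had 101, 292, 215, 264 and 215 CPM in control replicates 1 to 5 and 217, 184, 251.8, 207 and 56.7 CPM in HG_1 to HG_5. HG_5 and control replicate 1 were far below the other 8 libraries, and they were also the lowest in FPKM, at 24.6 and 46.2 against 88.6 to 130.4 elsewhere. The log2 fold change was -0.24 (95% interval -1.05 to 0.56, adjusted p = 0.73). It was -0.02 without HG_5 alone and -0.43 without control replicate 1 alone. Leaving out both, a choice made after the values were seen, gave -0.20 (SE 0.126, adjusted p = 0.422). MGAT4B overlaps SQSTM1 on the opposite strand, and the strand setting of the counting was not given in the sources used here. MGAT3, which adds the bisecting residue, had at most 2 counts in a library, and MGAT4C and MGAT4D had 0 in all 10. None of the 3 was tested.

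**Figure D4:**
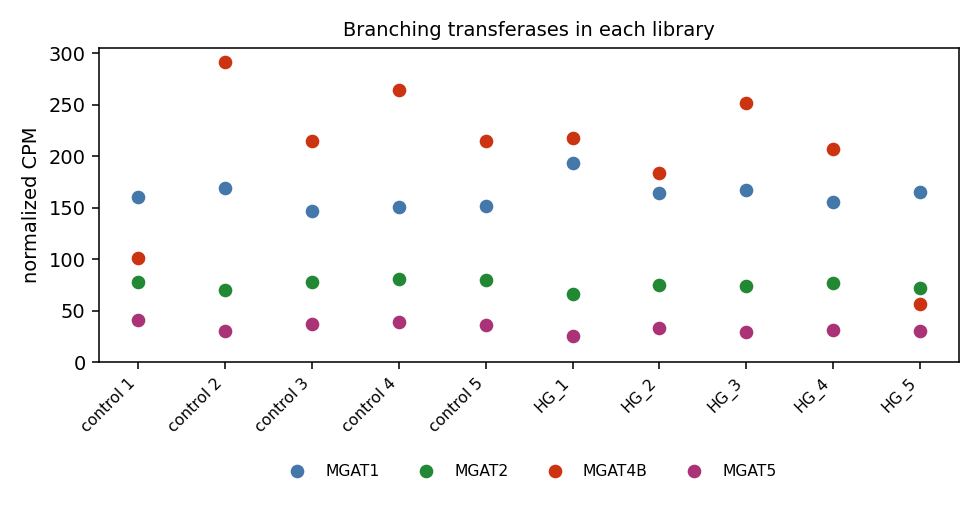
Normalized CPM (vertical axis, from 0) of MGAT1, MGAT2, MGAT4B and MGAT5 in each of the 5 control and 5 HG libraries. MGAT4B is at 101 in control replicate 1 and 56.7 in HG_5 and between 184 and 292 in the other 8, while MGAT1 stays between 146 and 193.

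The remaining mannosidases degrade glycans. MAN2B1 (chr19:12646511-12666742, minus strand), the lysosomal alpha-mannosidase, had 95.4, 106, 94.8, 86.3 and 94.4 CPM in control replicates 1 to 5 and 89.9, 74, 78.9, 72.3 and 74.6 CPM in HG_1 to HG_5. HG_1 lay above control replicate 4, and the other HG libraries were below all controls. The log2 fold change was -0.29 (SE 0.0718, adjusted p = 0.0194), with -0.31 (adjusted p = 0.00122) without HG_1 and control replicate 2. The adjusted p was 0.0533, 0.0511 and 0.0502 without HG_2, HG_4 and HG_5. A share of 30.5% of its 100-base windows is also found in annotated loci on the same strand. MAN2B2, another lysosomal mannosidase, had 81.7, 76.7, 86.5, 79.9 and 78.8 CPM in the control libraries and 88.5, 87.4, 88.5, 87.5 and 88.9 CPM in the HG libraries. Every HG library was above every control, but the adjusted p was 0.0621 (log2 fold change 0.13). MAN2B2 was called with the GC and length correction at 0.20 (adjusted p = 0.00396) and without HG_1 and control replicate 2 at 0.11 (adjusted p = 0.0485). The cytosolic MAN2C1 had 0.06.

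HG_1 and control replicate 2 deviated from their groups in the same genes. For each gene, the log2 CPM of the library minus the mean of the other 4 of its group was taken, and across the 49 genes the deviations of these libraries had a Pearson correlation of 0.893 (Spearman 0.877), with the same sign in 43. The points share each library's depth, and genes are not independent replicates. The deviations also correlated with the GC content of the transcripts (Pearson 0.72 for HG_1 and 0.594 for control replicate 2). GC-poor ALG10B was low in both libraries and GC-rich DPM2 high in both. Exceptions included ALG14 (42% GC), which was high in both, and MAN1C1 (55.1% GC), which was low in both. HG_1 was the highest or lowest of its group in 35 of 49 genes and control replicate 2 in 40. Without both libraries 8 genes were called higher and 6 lower, beside 27.1% of all rows, and with each library corrected for GC content and transcript length 7 were higher and 6 lower, beside 27.9% of all rows. GMPPB, MAN1B1, MAN2B2, MGAT5 and RPN1 were called in both of these fits in addition to the calls above, of which the correction lost DPM1.

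**Figure D5:**
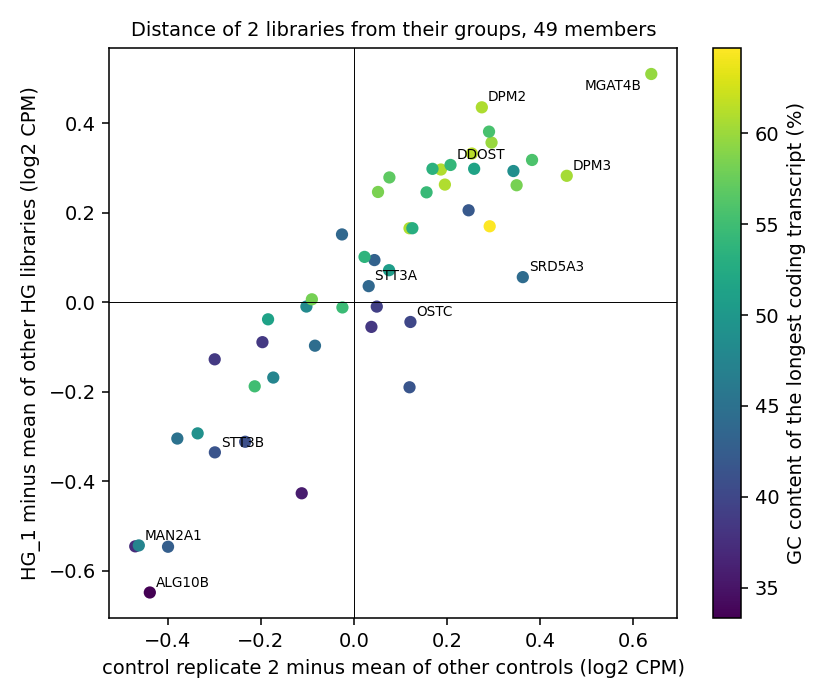
Deviation of HG_1 from the mean of the other HG libraries (vertical axis, log2 CPM) against that of control replicate 2 from the other controls (horizontal axis), for the 49 tested genes, coloured by the GC content of the longest coding transcript. The points run from ALG10B at the lower left to MGAT4B at the upper right, with several GC-poor genes toward the lower end. For MGAT4B, HG_1 (217 CPM) lay below HG_3 (251.8 CPM). The low values of HG_5 and control replicate 1 lowered the means from which its deviations were taken.

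Other genes of the pathway were taken from lists written by function. Of 50 genes for dolichol synthesis and flipping, small oligosaccharyltransferase subunits, glycoprotein folding, cargo lectins, terminal Golgi steps and sugar nucleotides, 49 were tested, 2 were higher and 3 lower (10.2%, beside 15.4% of all rows). ST6GAL1, which adds terminal sialic acid, was higher by 0.25 on the log2 scale (adjusted p = 0.0184), and GNE, which starts sialic acid synthesis, by 0.30 (adjusted p = 0.0211). The lectin chaperone CALR was lower at -0.51 (adjusted p = 0.00142), its partner PDIA3, a disulfide isomerase for glycoproteins, at -0.21 (adjusted p = 0.00769), and DOLPP1, which recycles dolichol pyrophosphate, at -0.26 (adjusted p = 0.0367). GFPT2 was not tested, with at most 2 counts in a library.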

How the data were processed

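For each gene and library the authors deposited raw, unnormalized read counts in one table and FPKM in another, the latter scaled by them for transcript length and library size. The submitters' processing notes name fastp 0.20.1, HISAT2 2.2.1 and the build GRCh38. The counting program, its strand setting and the annotation are not given in the sources used here. Control columns were matched to samples by number. HG columns (HG_1 to HG_5) could be tied to the HG group but not to the lettered sample titles.

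Counts were tested in R 4.3.3 with edgeR 4.0.16 (default filter on low counts, TMM normalization, quasi-likelihood test, 5 against 5 libraries, Benjamini-Hochberg adjustment over all 14936 rows tested), after the script had been tested on simulated data. CPM values are normalized, and FPKM was used where levels of different genes were compared. Ratios are differences of log2 CPM (prior count 2), compared by two-sided exact permutation over all arrangements of the 10 libraries, of which the smallest possible p is 0.00794. Alternatives used DESeq2 1.42.0, limma 3.58.1 on log2(FPKM + 1) and log2(FPKM + 0.1), other scalings and filters, fits without each library, and a correction in which a lowess curve (span 0.3) of log2 CPM deviations against GC content and then length of GENCODE transcripts was removed from every library.

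Genes and lists were chosen with earlier results of these data known. Values in every library were given for called genes, for the gene of highest mean FPKM in each step and for ratio members, and companion genes were named where called, at most 4 per list by size of change. A few more genes were given by library after their values were seen (ALG12, MAN2B2, RPN1). All 20 pairs of libraries within a group differed by more than counting noise (chi-square per degree of freedom 13.8 to 78.5), so each was counted as 1 replicate. Nothing in the labels says that replicates were separate cultures, so p-values measure the spread between these libraries, which may be technical. Count floors cover counting error only. Promoters came from RefSeq (GRCh38.p14). Proteins were not analysed here.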

Additional observations from a re-analysis of the deposited data

Results flagged for a closer look

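Of 108 groups of 5 values checked (each tested gene and each ratio in each group), 18 had a library whose gap to the nearest other was more than 0.71 of the group's range. For independent, normally distributed groups, about 1 in 20, or 5.4 here, would do so. These groups share the same 10 libraries, and the ratios reuse the genes, so 18 cannot be tested against that number. HG_1 or control replicate 2 was the distant library in 16 of the 18.

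In HG_1, ALG3 was high at 63.3 CPM (other HG libraries 45.5 to 49.9), DPAGT1 at 51.6 (41.5 to 44.2), DPM2 at 34.2 (24.6 to 25.9) and MOGS at 110.2 (84.6 to 89.7). In the same library ALG11 was low at 26.3 CPM (31.8 to 32.9), MAN1A1 at 12.7 (17.7 to 19.2), MAN1A2 at 35.1 (50.2 to 51.9) and MAN2A1 at 116.8 (168 to 173). Its log2 ratio was -0.0194 for STT3A to STT3B, 1.00 for TUSC3 to MAGT1 and 0.42 for MAN2A1 to MAN2A2.

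In control replicate 2, DAD1 was high at 111 CPM (other controls 84.1 to 89.9) and GMPPA at 51.3 (38.9 to 41.6), while MAN2A1 was low at 122 (162 to 176) and MGAT2 at 70.2 (78.2 to 80.3). Its log2 ratio of STT3A to STT3B was -0.0898, above the other controls at -0.46 to -0.38. The genes that were far from the group in these libraries included GC-rich genes on the high side and GC-poor genes on the low side, and the part of GC content in each was not tested.

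The remaining pair did not involve these libraries. MAN2C1 was low in HG_4 at 44.8 CPM (other HG libraries 54.7 to 58.6), and the log2 ratio of MGAT4A to MGAT4B was -2.74 in HG_5 (-5.06 to -4.56 elsewhere in the group).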

How the results depend on the processing

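Across 20 alternative settings, 0 of the 7 called genes changed sign, and 16 of the 42 uncalled genes did so under at least 1. OSTC was called under all 20, MAN2A2 under 19, DPM3 under 18, MAN2B1 under 17, DPM1 under 13, MAN1C1 under 12 and MGAT5B under 10. Leaving out 1 library at a time gave 1 to 5 higher calls and 2 to 5 lower calls, beside 4 and 3 with all libraries, while 10.9% to 19.9% of all rows were called in those fits (15.4% with all libraries). DESeq2 called 5 lower, with 19.9% of all rows called. Without HG_1 and control replicate 2 the counts were 8 higher and 6 lower, and with the GC and length correction 7 higher and 6 lower. The cause of these gains was not tested. The log2 ratio of TUSC3 to MAGT1 differed by 0.12 to 0.22 when 1 library was left out, and its adjusted p was under 0.05 without control replicate 2 (0.22, adjusted p = 0.0397). Without HG_1 and control replicate 2 the design allows no p under 0.0286 before adjustment over 5 ratios. TUSC3 to MAGT1 and MAN2A1 to MAN2A2 both reached that limit, with full separation of the groups. The other ratios had an adjusted p over 0.05 under every alternative run, although STT3A to STT3B, MAN1A1 to MAN1A2 and MGAT4A to MGAT4B turned sign when some single libraries were left out. No paired fit was made: the labels number the control samples 1 to 5 and the HG samples 6 to 10, and nothing ties the equal numbers in the column names of the deposited table to a shared culture or day. The ratio of count to FPKM varied by over 10% between libraries in 22 of 47 genes, and 34 of the 52 genes overlap a gene on the opposite strand. Values of those genes may depend on how reads were counted, which was not tested.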
